A study of Homo sapiens with 12 samples.

Results

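The 6 genes described here belong to the cell's defence against reactive compounds and to its iron store. They were followed in cerebral organoids (COs) with and without an intact *c-JUN* gene: the glutathione transferases *GSTA1*, *GSTA2*, *MGST1* and *GSTP1*, and the ferritin chains *FTL* and *FTH1*. The genes were taken by symbol from the 10976 genes listed for every library, and all 6 were found. WT COs were made from the human embryonic stem cell line H1, and KO COs from KO#2 and KO#10, each of them a single H1 clone in which CRISPR-Cas9 had disrupted *c-JUN*. Each line gave 2 libraries on day 12 and 2 on day 24, which made 12 libraries in all, with 2 WT and 4 KO libraries on each day. Each library held RNA of 3 to 4 pooled COs, depleted of ribosomal RNA and sequenced with strand information. The labels do not say whether replicates came from separate differentiations, so that the *p*-values measure the spread between libraries, which may be technical. The KO libraries of a day are 2 from each clone, and all WT libraries come from a single line. Genotype and line can therefore not be told apart.

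The value of a gene in a library is a whole-number score that the authors normalized, not a count. The totals lay between 473637 and 483149 in the 12 libraries, the highest score was 5585 and the median was 17 in each of them, and only 269 to 271 different scores occurred in a library, so that genes share score levels and the sequencing depth is unknown. *JUN* scored 4 and 8 in WT and 13 to 19 in KO on day 12, and 13 and 15 in WT and 29 to 39 in KO on day 24. The edited gene was thus not lower in the libraries labelled KO (log2 difference 1.25 on day 24, limma, adjusted *p* = 0.0184), and WT and KO below mean the libraries labelled so. The study reported that c-JUN protein was absent from the KO cell lines by western blot. By RT-qPCR it reported no *c-JUN* mRNA in KO COs, which the scores here do not match. The reason was not tested. Of 10 neural progenitor markers all were listed, with a summed score of 600 to 1296 in every library, and of 12 neuron markers 11 were listed, with a sum of 326 to 2332. Library KO#10 replicate 1 of day 24 stood apart from the other 3 KO libraries of that day, with a mesenchyme marker sum of 2908 against 139 to 173. The WT libraries of that day had sums of 2447 and 2074, so that this library was nearer to WT than to the other KO libraries in these markers.

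Glutathione transferases join the thiol of glutathione to reactive molecules so that these can be exported. GSTA1 and GSTA2 are cytosolic alpha class enzymes that are abundant in the liver, GSTP1 is the cytosolic pi class enzyme found in many proliferating and epithelial cells, and MGST1 sits in membranes of the endoplasmic reticulum and the mitochondria, where it also reduces lipid peroxides. Ferritin is a hollow shell of light (FTL) and heavy (FTH1) chains that stores iron, and the heavy chain oxidizes the iron that enters. The translation of both ferritin mRNAs is held back by iron regulatory proteins when iron is scarce, so that an mRNA value says little about ferritin protein. Genes of this defence are textbook targets of the factor NRF2, which binds antioxidant response elements, sites that resemble the site of AP-1, the dimer that contains c-JUN.

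The sequences in front of these genes differ in such sites. The RefSeq-derived promoter table (GRCh38.p14) had entries of 250 bases before and 50 after the start for 5 of the 6 genes, with 3 starts for *MGST1*. The core of the antioxidant response element, TGACNNNGC on either strand, occurs in 13.3% of the 35116 promoters of the table, and the AP-1 site, TGANTCA on either strand, in 7.71%. Neither was found in the windows of *GSTA1*, *GSTA2* and *FTL*. In *GSTP1* a single stretch at position −66 matched both, and in *MGST1* the core was found at position 31 after one of the 3 starts. The loop of the iron responsive element, CAGTGN on the transcript strand, was found at position 39 of *FTL*, in the part of the mRNA in front of the coding sequence. These letters were also found in *GSTP1* at position 32 and in *GSTA1* and *GSTA2* at positions −174 and −65, and they occur in 32.1% of the promoter windows. The matches to the antioxidant core and the loop match of *FTL* are shown 5′ to 3′ on the strand of the gene, in capitals. A match is a description of letters and not of binding.
GSTP1 site (chr11:67583736-67583765, plus strand): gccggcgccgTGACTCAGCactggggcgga
MGST1 site (chr12:16347135-16347164, plus strand): ggggacatcgTGACAAAGCaaattgtctgg
FTL site (chr19:48965329-48965358, plus strand): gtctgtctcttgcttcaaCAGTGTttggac

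*GSTA1* and *GSTA2* lie on the minus strand of chromosome 6 and are near copies of each other, also in front of the gene. Of 156 bases that precede the gene in both RefSeq and GENCODE release 29, 4 differed (97.4% identity), and these are in capitals in the pair shown here because both genes are read together below.
GSTA1 (chr6:52803911-52804066, minus strand): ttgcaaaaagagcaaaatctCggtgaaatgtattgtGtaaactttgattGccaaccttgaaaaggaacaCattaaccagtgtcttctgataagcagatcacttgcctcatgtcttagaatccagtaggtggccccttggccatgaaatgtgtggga
GSTA2 (chr6:52763570-52763725, minus strand): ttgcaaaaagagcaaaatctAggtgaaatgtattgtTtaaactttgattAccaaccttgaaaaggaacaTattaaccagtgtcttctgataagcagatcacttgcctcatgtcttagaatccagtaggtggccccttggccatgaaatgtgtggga
The likeness goes on in the transcripts. The longest coding transcript of *GSTA1* has 1019 bases, and 60 of its 870 windows of 150 bases (6.90%) also occur unchanged in *GSTA2*, with a longest shared run of 209 bases. How reads from such stretches were divided between the genes is not stated, and the separate scores of *GSTA1* and *GSTA2* are uncertain to that extent.

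*MGST1* (ENSG00000008394, chr12:16347142-16609259) was the one member called lower in KO on both days. On day 12 it scored 507 and 820 in WT, against 167 and 142 in KO#2, and 124 and 136 in KO#10. All 4 KO libraries lay below both WT libraries, which was so for 8.34% of the 8885 genes tested on that day. The WT mean of 663.5 ± 221 (SD, n = 2) was 4.66-fold above the KO mean of 142 ± 18.1 (SD, n = 4). On the log2 (score + 1) scale the difference was −2.18 (standard error 0.22, limma, adjusted *p* = 0.0167). Besides *MGST1* only 5 further genes were called lower on this day, which makes 6 of 8885 (0.0675%), where a call needs a Benjamini-Hochberg adjusted *p* under 0.05 over all genes tested and at least a 2-fold difference. With the replicate number as a block, which pairs the libraries of this day, 35 genes were called lower and *MGST1* was among them (adjusted *p* = 0.0103). The unblocked call was lost when any single library was left out, with adjusted *p* of 0.0637 and 0.0816 without WT replicates 1 and 2, 0.0573 and 0.148 without those of KO#2, and 0.141 and 0.0794 without those of KO#10, in limma fits in which a lone WT library was taken to vary like the KO libraries. The difference lay between −2.53 and −1.83 in these fits.

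On day 24 *MGST1* was again lower in KO. WT scored 452 and 750, KO#2 scored 37 and 15, and KO#10 scored 109 and 14. All 4 KO libraries were thus below both WT libraries, as in 21.8% of the genes tested on this day. Within each clone replicate 1 was above replicate 2. The WT mean of 601 ± 211 (SD, n = 2) was 13.7-fold above the KO mean of 43.75 ± 44.8 (SD, n = 4), a log2 difference of −4.20 (standard error 0.78, 95% interval −6.05 to −2.35, limma, adjusted *p* = 0.0244). On this day 352 of the 9289 genes tested (3.79%) were called lower and 392 (4.22%) higher. The call of *MGST1* held without KO#10 replicate 1 (adjusted *p* = 0.00389) and was lost without WT replicate 1 (0.0889), WT replicate 2 (0.253), KO#2 replicate 1 (0.0592), KO#2 replicate 2 (0.0726) or KO#10 replicate 2 (0.0733). The number of all genes called, 744 (8.01%), also moved, to 23, 2, 263, 15 and 23 without these libraries in turn and to 1346 without KO#10 replicate 1.

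*GSTA2* (ENSG00000244067, chr6:52750087-52763475) and *GSTA1* (ENSG00000243955, chr6:52791371-52803860) were listed at 0 in all 6 libraries of day 12 and appeared on day 24, mainly in WT. On day 24 *GSTA2* scored 35 and 27 in WT, against 1 and 0 in KO#2, and 7 and 0 in KO#10. *GSTA1* scored 26 and 20 in WT, against 1 and 0 in KO#2, and 7 and 0 in KO#10. Both genes were listed at 0 in the same 2 KO libraries, both were highest among the KO libraries in KO#10 replicate 1, and in neither gene did WT and KO overlap, as in 21.8% of the genes tested on this day for the direction below WT.

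Both alpha class genes were called lower in KO on day 24, *GSTA2* with a log2 difference of −3.99 (standard error 0.89, limma, adjusted *p* = 0.0341) and *GSTA1* with −3.57 (standard error 0.91, adjusted *p* = 0.0449). They entered the test only through their WT libraries, since a gene needed a score of at least 10 in 2 libraries, so that a difference was close to built in. The size depends on the constant added before taking logs: with 0.1 in place of 1 the differences were −5.87 and −5.44 and neither gene was called (limma, adjusted *p* = 0.0752 and 0.0952), and with 5 they were −2.46 and −2.10 and both were called. Without KO#2 replicate 1, KO#2 replicate 2 or KO#10 replicate 2 the adjusted *p* of *GSTA2* was 0.0727, 0.0865 and 0.0816 and that of *GSTA1* 0.0878, 0.101 and 0.0943. Without KO#10 replicate 1 both calls held, and without either WT library the genes were not tested. The study listed *GSTA1*, *GSTA2* and *FTL* among the genes lower in KO. It used these same libraries, so that the directions of these genes here are not independent evidence.

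**Figure D1:**
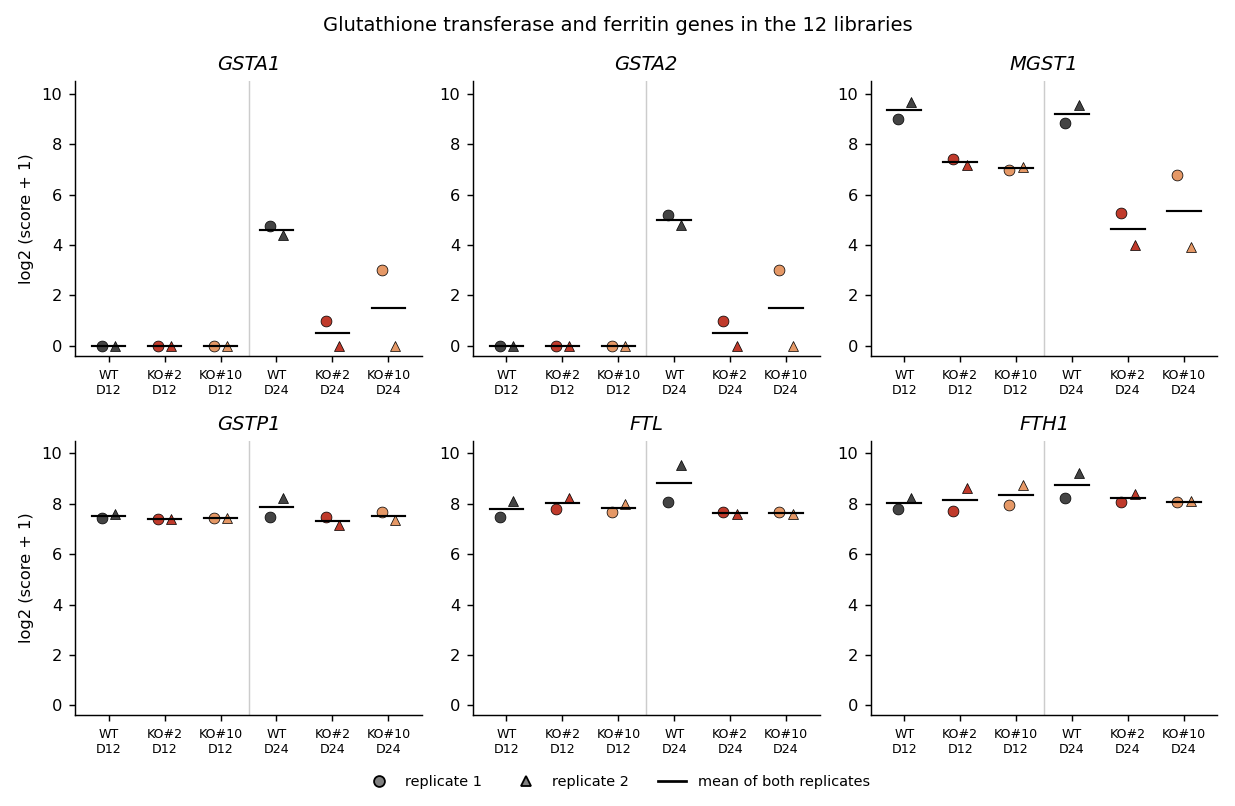
Scores of the 6 genes in the 12 libraries as log2 (score + 1), by line and day, with circles for replicate 1, triangles for replicate 2 and a bar at their mean. *MGST1* was lower in all KO libraries on both days, as were 8.34% of the genes tested on day 12 and 21.8% on day 24. *GSTA1* and *GSTA2* were listed at 0 on day 12 and scored 20 to 35 in WT on day 24. *GSTP1*, *FTL* and *FTH1* had their highest scores, 302, 750 and 600, in WT replicate 2 of day 24.

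*GSTP1* (ENSG00000084207, chr11:67583742-67586656) hardly varied. On day 12 it scored 172 and 192 in WT, against 167 and 167 in KO#2, and 172 and 171 in KO#10. On day 24 it scored 178 and 302 in WT, against 178 and 142 in KO#2, and 200 and 162 in KO#10. WT and KO overlapped on both days, and 11 of the 12 libraries lay between 142 and 200, with WT replicate 2 of day 24 above them. The KO minus WT difference was −0.10 (95% interval −0.41 to 0.20, limma, adjusted *p* = 0.854) on day 12 and −0.45 (95% interval −1.01 to 0.10, adjusted *p* = 0.199) on day 24. On day 12 the interval therefore leaves out a 2-fold difference in either direction. The difference of day 24 was −0.83 without WT replicate 1 and −0.073 without WT replicate 2, neither of them called.

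*FTL* (ENSG00000087086, chr19:48965309-48966879), the ferritin light chain, was not called between the genotypes on day 12. It scored 178 and 277 in WT, against 220 and 302 in KO#2, and 200 and 250 in KO#10, with replicate 2 above replicate 1 in every line. The log2 difference was 0.11 (95% interval −0.42 to 0.64, limma without a block, adjusted *p* = 0.91). The spread behind this interval includes the difference between the replicates. On day 24 it scored 264 and 750 in WT and 200 and 192 in each clone. All 4 KO libraries lay below both WT libraries, as in 21.8% of the genes tested, but the WT libraries were further apart than the lower of them was from KO. The difference of −1.18 (standard error 0.36, 95% interval −2.03 to −0.33) missed the threshold (limma, adjusted *p* = 0.0654). It was −1.93 and called without WT replicate 1 (adjusted *p* = 0.0148), and −0.43 and not called without WT replicate 2 (adjusted *p* = 0.267). With all 12 libraries in 1 fit the same difference of −1.18 was called (adjusted *p* = 0.0201). In the fit of day 24 alone the unadjusted limma *p* of *FTL* was 0.0136, and its WT mean was 2.59-fold above its KO mean. The study reported *FTL* as significantly lower in KO COs of that day. Its text does not say whether the *p*-values behind that list were adjusted. The listing there and the missed call here may thus rest on unlike thresholds.

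*FTH1* (ENSG00000167996, chr11:61959718-61967634), the heavy chain, overlapped between WT and KO on both days. On day 12 it scored 218 and 301 in WT, against 206 and 393 in KO#2, and 248 and 424 in KO#10, with replicate 2 above replicate 1 in every line. On day 24 it scored 301 and 600 in WT, against 264 and 335 in KO#2, and 264 and 277 in KO#10. The difference was 0.25 (95% interval −0.47 to 0.96, limma, adjusted *p* = 0.852) on day 12 and −0.58 (95% interval −1.21 to 0.05, adjusted *p* = 0.155) on day 24. The value of day 24 rests on the WT libraries, with −1.08 without WT replicate 1 and −0.086 without WT replicate 2, neither of them called. Both ferritin genes have many processed copies in the genome, 25 named *FTH1P* and 16 named *FTLP* in GENCODE release 29, and none of these was among the 10976 genes. Of the 1080 windows of 150 bases in the longest coding transcript of *FTH1*, 8 recur in such a copy, and of 729 in *FTL* none does, while with windows of 50 bases 40.4% and 18.3% recur.

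**Figure D2:**
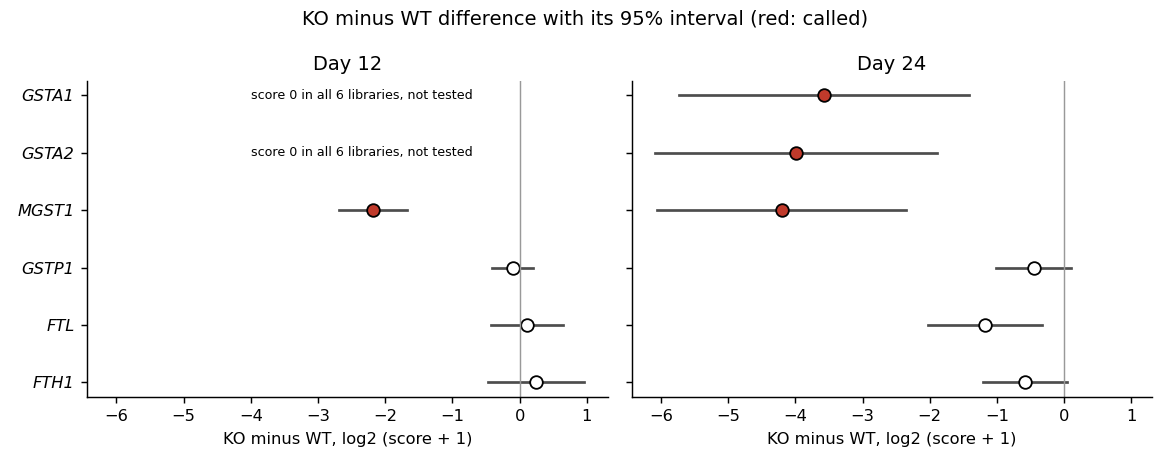
KO minus WT difference of each gene on the log2 (score + 1) scale on day 12 (left) and day 24 (right), with 95% intervals from limma over 2 WT and 4 KO libraries and called genes in red. *MGST1* was called on both days (−2.18 and −4.20), *GSTA2* and *GSTA1* on day 24, and the intervals of *GSTP1* and *FTH1* include 0 on both days.

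In WT the alpha class genes rose between the days. *GSTA2* and *GSTA1* went from 0 in both WT libraries to 27 and 35 and to 20 and 26, and both were called higher on day 24 than on day 12 (limma over all 12 libraries, adjusted *p* = 0.0049 and 0.00833), as were 717 of the 9952 genes tested (7.2%). They reached a score of 10 in WT of day 24 alone, so that this rise too was close to built in by the filter, and no fold is given because the genes were listed at 0 on day 12. The call of *GSTA1* was lost without WT replicate 1 of day 12 (adjusted *p* = 0.051). The other members were not called in WT, with a difference of −0.15 (95% interval −1.69 to 1.39) for *MGST1*, 0.35 for *GSTP1*, 0.73 for *FTH1* and 1.00 for *FTL* (limma, adjusted *p* = 0.0619). For *FTL* the difference was 1.75 and called without WT replicate 1 of day 24 (limma, adjusted *p* = 0.00392), and 0.25 and not called without WT replicate 2 (0.581).

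In KO *MGST1* was the member called with time. It went from a mean of 142 ± 18.1 (SD, n = 4) on day 12 to 43.75 ± 44.8 (SD, n = 4) on day 24, and fell by 2.17 on the log2 scale (standard error 0.50, limma, adjusted *p* = 0.00548). Of all genes tested 5.59% were called lower between the days in KO. This call held in all 20 alternative fits that were run. *GSTA1*, *GSTA2*, *GSTP1*, *FTL* and *FTH1* were not called, with *GSTP1* at a difference of −0.00052 (95% interval −0.35 to 0.34).

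Whether the gap between KO and WT differed between the days was tested directly. No member passed, with a change of the difference of −2.02 for *MGST1* (limma, adjusted *p* = 0.204), −3.99 for *GSTA2* (0.107), −3.57 for *GSTA1* (0.144), −1.29 for *FTL* (0.139), −0.83 for *FTH1* (0.306) and −0.35 for *GSTP1* (0.497). For *GSTA2* and *GSTA1*, listed at 0 throughout day 12, this change is the day 24 difference itself. It was likewise close to built in by the filter and is no separate evidence. Of all genes 1.31% were called in this test of the change. Without KO#10 replicate 1 of day 24, *MGST1* (−2.62, adjusted *p* = 0.00866), *GSTA2* (−4.66, 0.00501) and *GSTA1* (−4.24, 0.00854) were called, and the number of all genes called went from 130 to 916. Without WT replicate 1 of day 24, *FTL* was called (−2.04, limma, adjusted *p* = 0.023), and without WT replicate 2 of that day its change was −0.54 (adjusted *p* = 0.54).

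When the clones were compared with WT one by one on day 24, calls were made in KO#2 and not in KO#10. *MGST1* was 23.1-fold lower in the mean of KO#2 than of WT (log2 difference −4.56, limma, adjusted *p* = 0.0414) and 9.77-fold lower in that of KO#10 (−3.84, adjusted *p* = 0.112). *GSTA2* was called in KO#2 (adjusted *p* = 0.0474) but not in KO#10 (0.139), and *GSTA1* in neither (0.0566 and 0.169). In KO#2 395 genes (4.25%) were called lower and in KO#10 13 (0.14%). These counts do not show that the clones differ. Between KO#2 and KO#10 the difference of *MGST1* was −0.72 (95% interval −3.08 to 1.64, limma, adjusted *p* = 0.891) on day 24 and 0.24 (95% interval −0.39 to 0.88) on day 12, and no gene of the whole table was called on either day, with 479 and 115 genes at an unadjusted limma *p* under 0.05. The *MGST1* call in KO#2 was lost with the replicate number as a block (adjusted *p* = 0.0501), without either WT library (0.141 and 0.268) and without either KO#2 library (0.188 and 0.186), and the *GSTA2* call without either KO#2 library (0.188 and 0.19).

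The order of the 6 groups differed from gene to gene. *MGST1* was highest in the WT groups of both days, which overlapped, then came KO#2 and KO#10 of day 12, whose libraries did not overlap although no difference between them was called, and the KO groups of day 24 were lowest and overlapped each other. *FTL*, *FTH1* and *GSTP1* were all highest in WT of day 24, but this group overlapped the next one in each of the 3 genes, and its replicate 2 alone set the highest score. For *GSTA1* and *GSTA2* WT of day 24 stood above KO#10 of day 24 without overlap, and all other neighbours overlapped.

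Markers of other cell types moved with these genes, and in bulk COs fewer cells of a type and less RNA per cell cannot be told apart. On day 24 the summed score of the 13 listed hepatic and yolk sac endoderm markers (of 19) was 7350 and 7547 in WT and 33 to 1393 in KO, and 6 of the 12 tested were called lower, where 3.79% of all genes were. Of these 12, 8 passed the filter on low scores only through WT, among them 5 of the 6 called, so that their calls were close to built in. The highest KO sum was that of KO#10 replicate 1, the KO library with the highest *GSTA1*, *GSTA2* and *MGST1*. In KO#10 replicate 2 and KO#2 replicate 2, where *GSTA1* and *GSTA2* were listed at 0, 11 and 9 of the 13 markers were at 0. *AFP*, the fetal albumin-like protein of liver and yolk sac, scored 5585 in both WT libraries, 42 and 1 in KO#2, and 902 and 0 in KO#10. The highest score of every library is 5585, so that *AFP* stood at the top of the scale in WT and its level there cannot be sized. It made up most of the endoderm sum in both WT libraries and in KO#10 replicate 1.

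Simple epithelium and pluripotency markers were, like *MGST1*, lower in KO on day 24. All 9 epithelial markers tested were called lower in KO, with sums of 711 and 982 in WT and 43 to 257 in KO, as were 6 of the 7 pluripotency markers tested, with sums of 478 and 1102 in WT and 55 to 82 in KO. Here too 6 of the 9 and 3 of the 6 called had passed the filter only through WT, and 3.79% of all genes were called lower. The embryonic globin *HBE1* scored 31 and 29 in WT and at most 1 in KO, the fetal globin *HBG2* scored 31 and 18 in WT and 0 in each KO library. Both were called lower and both had entered the test only through WT. Neuron markers stood the other way, with 4 of 10 called higher in KO (4.22% of all genes) and sums of 326 and 502 in WT and 713 to 2332 in KO. Of the choroid plexus list 2 of 5 were called lower. They were *TTR*, which is also on the endoderm list, and *AQP1*, which passed the filter only through WT. *LMX1A* of this list was higher in KO but not called (3 and 3 in WT, 5 to 28 in KO). Among the mesenchyme list none of 6 was called by limma, and of 6 macrophage markers none was among the 10976 genes. The part of these cell types in the differences of *MGST1*, *GSTA1* and *GSTA2* was not tested.

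On day 12 the marker picture was another one. The endoderm markers summed to 7 and 27 in WT and to 3 to 26 in KO. Pluripotency markers were lower in KO, with sums of 855 and 1106 in WT and 489 to 547 in KO and 3 of 7 called lower (0.0675% of all genes), and the epithelial sum was 359 and 385 in WT and 202 to 334 in KO with none of 9 called by limma. The part of any of these cell types in the *MGST1* difference of day 12 was not tested.

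**Figure D3:**
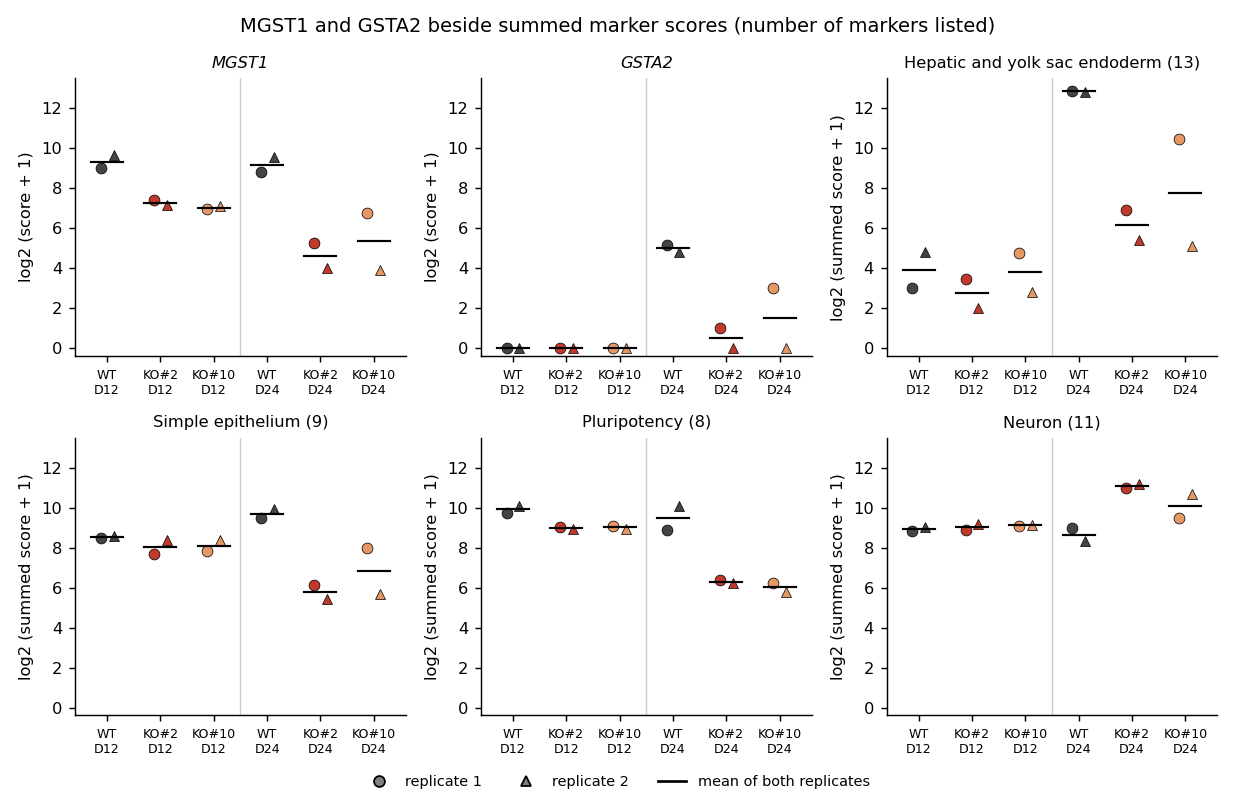
*MGST1* and *GSTA2* as log2 (score + 1), and the summed scores of 4 marker lists as log2 (sum + 1), in the 12 libraries by line and day, with circles for replicate 1, triangles for replicate 2 and a bar at their mean. *GSTA2* was above 7 only in WT of day 24, where the endoderm sum was 7350 and 7547. On day 12 that sum was at most 27, and *MGST1* was lower in KO on both days. The part of these cell types was not tested.

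Other glutathione transferases did not move as one group. Of 22 further family members 12 were listed and tested on day 24, of which 2 were called lower in KO and none higher (3.79% and 4.22% of all genes), with a median difference of −0.28 against 0.01 over all genes tested. *MGST2*, a membrane enzyme of the same family as MGST1 that can make leukotriene C4, scored 22 and 22 in WT, against 5 and 4 in KO#2 and 13 and 6 in KO#10 (−1.64, standard error 0.40, limma, adjusted *p* = 0.0398). *GSTO2*, an omega class enzyme that reduces dehydroascorbate, scored 11 and 14 in WT and 2 to 6 in KO (−1.57, standard error 0.40, adjusted *p* = 0.0456). Both needed their WT libraries to pass the filter on low scores. Its neighbour *GSTO1* scored 57 and 58 in WT, against 10 and 12 in KO#2 and 43 and 16 in KO#10 (−1.69, limma, adjusted *p* = 0.0645), and was called without KO#10 replicate 1 (−2.12, adjusted *p* = 0.00389). The 2 calls of the list became 3 without that library and none without any other library of the day. In KO#2 alone against WT, *GSTO1* (−2.29, limma, adjusted *p* = 0.0375) and *MGST2* (−2.07, adjusted *p* = 0.0353) were called lower. On day 12 none of the 10 tested was called by limma.

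*GSTA4*, the alpha class enzyme that clears the lipid peroxidation product 4-hydroxynonenal, stood opposite to its relatives *GSTA1* and *GSTA2*, and is named after its values were seen. On day 24 it scored 42 and 28 in WT and 61 to 73 in KO, with all KO libraries above both WT libraries, as in 22.2% of the genes tested. The difference of 0.97 (standard error 0.18, limma, adjusted *p* = 0.0244) is just under 2-fold and so not a call, while in KO#2 alone against WT it was called higher (1.04, adjusted *p* = 0.0415). Between the days it was called higher in KO (1.42, adjusted *p* = 3.08e-05), as were 5.88% of all genes, from scores of 22 to 28 on day 12. *GSTM3*, a mu class enzyme known from brain and testis, was higher on day 24 than on day 12 in WT (1.27, adjusted *p* = 0.0146) and in KO (1.40, limma, adjusted *p* = 0.000868), and *GSTO1* likewise (1.78 and 1.17, adjusted *p* = 0.0199 and 0.0205). In WT 5 of the 12 were called higher with time and none lower, against 7.2% and 7.86% of all genes.

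The enzymes that make, recycle and use glutathione gave no call between the 4 KO and the 2 WT libraries. Of 27 such genes 21 were tested on day 24, with a median difference of −0.33, and 8.01% of all genes were called in either direction. The least *p* belonged to *GPX8*, a peroxidase of the endoplasmic reticulum (46 and 39 in WT, 9 to 32 in KO, difference −1.37, limma, adjusted *p* = 0.0665), which was called without KO#10 replicate 1 (−1.70, adjusted *p* = 0.00755) and in KO#2 alone (−1.82, adjusted *p* = 0.0414), and to *ABCC1*, which exports glutathione conjugates (16 and 18 in WT, 9 to 13 in KO, difference −0.54, adjusted *p* = 0.0804). On day 12 none of 18 was called. *ESD*, an esterase that frees glutathione from S-formylglutathione, rose with time in both genotypes, by 1.97 in WT (limma, adjusted *p* = 0.00192) and by 2.21 in KO (adjusted *p* = 5.77e-05), and *ABCC1* fell by 1.18 in KO (adjusted *p* = 7.66e-05).

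NRF2 and its textbook targets gave no call between the 4 KO and the 2 WT libraries either. On day 24, 17 of 27 were tested, with a median difference of −0.01, and 8.01% of all genes were called in either direction. *NQO1*, the quinone reductase most often used as a readout of NRF2, scored 25 and 28 in WT, against 11 and 8 in KO#2 and 27 and 8 in KO#10 (−1.10, limma, adjusted *p* = 0.126), so that KO#10 replicate 1 lay at the WT level, and it was called without that library (−1.47, adjusted *p* = 0.00606). *BLVRB*, a flavin and biliverdin reductase, scored 38 and 49 in WT and 9 to 28 in KO (−1.40, adjusted *p* = 0.0509), and *SQSTM1*, the autophagy receptor that frees NRF2 from KEAP1, scored 58 and 65 in WT and 34 to 42 in KO, a difference of −0.68 (adjusted *p* = 0.0278) that is under 2-fold. *BLVRB* was called without KO#10 replicate 1 (−1.66, limma, adjusted *p* = 0.0104) and in KO#2 alone (−1.80, adjusted *p* = 0.0375). Between the days *NQO1* rose in WT (1.71, adjusted *p* = 0.0221) and in KO (1.04, adjusted *p* = 0.0327), and *AKR1C1*, an aldo-keto reductase, in WT (1.40, adjusted *p* = 0.0495) and in KO (1.35, adjusted *p* = 0.00991).

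Among genes of iron handling, the exporter was called. *SLC40A1* encodes ferroportin, the channel through which cells release iron. It was listed at 0 to 2 in the 6 libraries of day 12, scored 38 and 22 in WT, against 2 and 1 in KO#2 and 8 and 3 in KO#10 on day 24, and was called lower in KO (−2.97, standard error 0.59, limma, adjusted *p* = 0.0277). Like *GSTA1* and *GSTA2* it passed the filter only through WT, and its call was lost without KO#2 replicate 1 (0.0643), KO#2 replicate 2 (0.0702) or KO#10 replicate 2 (0.0788), while without either WT library it was not tested. It was the single call among the 18 genes of this list tested on day 24 (of 28), where 3.79% of all genes were called lower. A single call is thus near the share of all genes and says little about the list. The median of the list was −0.29, and 3 of its genes were called without KO#10 replicate 1. In KO#2 alone *SLC40A1* (−3.61, limma, adjusted *p* = 0.0301) and the metal importer *SLC39A14* (−1.11, adjusted *p* = 0.0401) were called lower, and none of the 4 lists had a call in KO#10 alone. The transferrin receptor *TFRC*, through which cells take up iron, scored 35 and 33 in WT and 23 to 28 in KO, and the iron regulatory protein gene *IREB2* 25 and 30 in WT and 22 to 25 in KO, both not called. Between the days in WT, *ACO1*, the other iron regulatory protein, rose (1.04, adjusted *p* = 0.0142) and *SLC25A37*, which brings iron into mitochondria, fell by 1.11 (limma, adjusted *p* = 0.00333), as 7.86% of all genes were called lower.

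**Figure D4:**
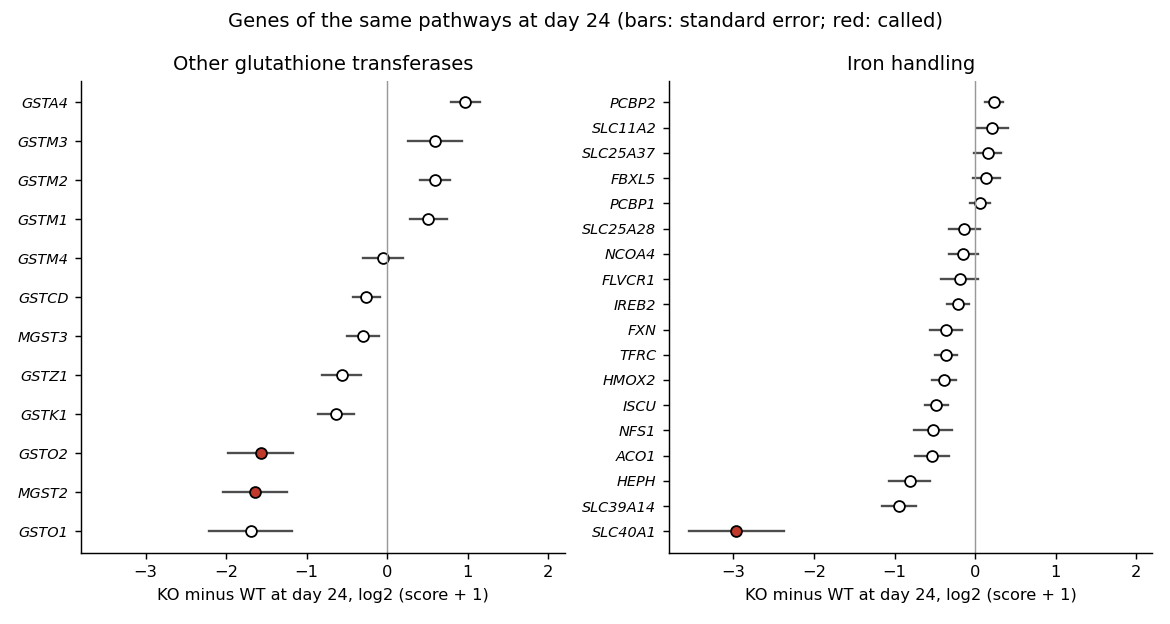
KO minus WT difference on day 24 on the log2 (score + 1) scale for the 12 other glutathione transferases tested (left) and the 18 iron handling genes tested (right), with bars for the standard error from limma over 2 WT and 4 KO libraries and called genes in red. *MGST2*, *GSTO2* and *SLC40A1* were called lower, and *GSTA4*, at 0.97, lay furthest above 0.

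The genes whose profile over the 12 libraries was most like that of each member were ranked by the root mean square difference of centred log2 (score + 1) values over the 9952 genes tested, as a description. Nearest to *GSTA1* was *GSTA2* (0.15), followed by *FGA* (0.25) and *APOA4* (0.35), and nearest to *GSTA2* after *GSTA1* were *FGA* (0.16) and *APOB* (0.31). These 3 genes encode fibrinogen and apolipoproteins that liver and yolk sac secrete, and *FGA*, itself on the endoderm list, was listed at 0 on day 12 and scored 40 and 29 in WT, against 1 and 0 in KO#2 and 11 and 0 in KO#10 on day 24. Nearest to *MGST1* were *CDH1* (0.64), the E-cadherin of epithelia and stem cells, *PODXL* (0.69) and the tight junction gene *CLDN6* (0.70), none of them as close as in the alpha class. *CDH1*, itself on the epithelial list, scored 26 and 28 in WT and 6 to 13 in KO on day 12, and 31 and 55 in WT and 1 to 5 in KO on day 24.

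For the members that varied less the ranking says less, since many genes hardly varied. *GSTP1* had *DIS3* (0.12), *PPP2R2A* (0.13) and *OTUD6B* (0.13) as its nearest genes, *FTL* had *FAM222B* (0.25), *TPD52* (0.26) and *PRKAB2* (0.26), and *FTH1* had *CLTC* (0.21), *CHP1* (0.21) and *SS18* (0.21). *FTL* and *FTH1* were 0.31 apart, which placed *FTH1* at rank 28 for *FTL* and *FTL* at rank 175 for *FTH1*.

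Parts of these genes overlap others. The listed interval of *MGST1* spans 262118 bases, of which 60887 are shared with *LMO3* on the opposite strand, and *LMO3* scored 31 to 39 in the 6 libraries of day 12 and 11 to 48 on day 24, with WT and KO overlapping on both days. The interval of *FTH1* shares 5798 of its 7917 bases with *BEST1* on the opposite strand, which was not among the 10976 genes. Whether strand was used in counting is not stated in the sources used here.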

How the data were processed

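The authors deposited, for each of the 12 libraries, a table of 10976 genes with whole-number scores. Per the labels, the submitters' processing notes list bcl2fastq, RSEM and Bowtie2, with no versions, and the build mm10. The gene identifiers are human, and all 10976 are in GENCODE release 29 (GRCh38), so that coordinates of genes are printed as listed and taken as compatible with that build. The normalization behind the scores is not given in the sources used here. They are not counts, no depth can be derived from them, and a normalization that gives libraries like distributions can hide shifts common to many genes.

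Members and gene lists were chosen with earlier results of these data known. Scores were transformed as log2 (score + 1). Genes that reached a score of 10 in 2 or more compared libraries entered limma 3.58.1 in R 4.3.3 (lmFit and eBayes with trend), KO against WT within each day, clones as 3 groups within each day, and changes with time over all 12 libraries in 4 groups. *P*-values were adjusted by Benjamini-Hochberg over all genes tested, and calls needed an adjusted *p* below 0.05 and a difference of 2-fold or more. The method was tested on simulated data. Besides the 6 members and *JUN*, at most 4 called genes a list on day 24, 2 more on day 12 and 2 more between the days in WT were named by size, or the 2 with the least *p* where none was called on day 24, with the 2 highest of each marker list and the 3 genes most like each member. Other names were chosen after their values were seen. Sequences came from RefSeq (GRCh38.p14) and transcripts from GENCODE release 29. No promoter entry for *FTH1* was used here. Tables were made with Python 3.11.15, pandas 2.3.3 and numpy 2.4.6, and figures with matplotlib 3.10.9.

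Deviations from the group means were correlated across genes between libraries that carry the same replicate number in their titles. On day 12 r was 0.393, 0.376 and 0.556 for the 3 pairs of lines, and the numbers were treated as pairs. On day 24 r was 0.218, −0.0944 and 0.328, and they were not.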

Additional observations from a re-analysis of the deposited data

Results flagged for a closer look

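*GSTA1* and *GSTA2* scored 7 in KO#10 replicate 1 of day 24 against 0, 0 and 1 in the other 3 KO libraries, a gap of 0.857 of the whole range, above the 95% limit of Dixon's test for 4 samples. Chance gives such a gap in about 1 in 20 groups of normally distributed values, and scores at or near 0 are not such values. The test was run on the scores themselves. On the log2 (score + 1) scale of the other results the gap of these scores is under the limit, so that neither gene stands out there. It covered the 4 KO libraries of each day for every member not listed at 0 throughout. The pair share sequence, so that these are not 2 separate observations. The same library had the highest KO value of *MGST1* (109 against 14, 15 and 37), with a gap of 0.758 that stayed under the limit, and an endoderm marker sum of 1393 against 33 to 119.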

How the results depend on the processing

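The 6 genes kept their direction in most alternatives, and the number of genes called over the whole table moved far more than their differences. Alternatives for the clones and the 4 gene lists were chosen after seeing the data. In the comparison of KO with WT on day 24, 744 genes were called, 476 with a score of at least 20 in 2 libraries and 1117 with all 12 libraries in 1 fit. On day 12, 8 genes were called, 3 without a filter, 16 without the trend, 1 with the clones as separate groups and 71 with the replicate number as a block. With 5 added before taking logs, the change with time called 981 genes in WT in place of 1499 and 691 in KO in place of 1141. The change of the KO minus WT difference between days called 130 genes, 83 at a score of at least 20 and 315 with the replicate block. KO#2 against WT called 836 genes, 522 with the block and 1432 with all 12 libraries, and KO#10 against WT 26 genes, 46 with 5 added, 51 without the trend, 468 with all 12 libraries and 0 with the block. Outside day 12 the replicate numbers mark no known pairing, so that the block results of day 24 do not show a weaker effect. Centring each library on its median changed no difference of a member and moved the number of genes called to 1495 in WT with time and 833 in KO#2. Other fits, leaving no library out, ended the call of *MGST1* on day 12 without a filter (limma, adjusted *p* = 0.0597), with the clones as separate groups (0.0706) and with all 12 libraries (0.233), and on day 24 those of *GSTA1* (0.168) and *GSTA2* (0.0958) at a score of at least 20 and that of *GSTA1* with the clones as separate groups (0.0566). In WT with time they ended the calls of *GSTA1* (0.0801) and *GSTA2* (0.0578) with 0.1 added and of *GSTA1* at a score of at least 20 (0.0677), and in KO#2 those of *MGST1* (0.0505) and *GSTA2* (0.0517) without a filter and of *GSTA2* with 0.1 added (0.102) and at a score of at least 20 (0.131). With 5 added, the change between days was called for *GSTA1* (limma, adjusted *p* = 0.0379) and *GSTA2* (0.0197), where it is the day 24 difference itself. *GSTA1* in KO#2 was called with 5 added (0.0339) and with all 12 libraries (0.0266). *MGST1* in KO#10 was called with all 12 libraries (0.0183). The block ended no call of a member other than *MGST1* in KO#2. The causes were not tested.

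Among the lists on day 24, iron handling had 1 call, and 2 with 0.1 added. NRF2 and its targets had 0 calls, and 1 each with 5 added, with the clones as separate groups and with all 12 libraries. The other glutathione transferases had 2 calls, 1 with the block and 0 at a score of at least 20, and glutathione synthesis and use had 0 calls, and 1 with all 12 libraries.

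With single libraries left out, the numbers of genes called ranged from 2 to 1346 for day 24, 1 to 4 for day 12, 810 to 1572 for WT with time, 11 to 916 for the change between days, 0 to 836 for KO#2, 0 for KO#10 in every case and 0 to 2 between the clones on day 24. The list calls ranged from 0 to 3 for the other glutathione transferases, 0 to 1 for glutathione synthesis and use, 0 to 2 for NRF2 and 0 to 3 for iron handling. Differences that changed sign were all uncalled. They were *FTL* on day 12 (−0.21 to 0.43), *MGST1* (−0.51 to 0.22) and *GSTP1* (−0.030 to 0.73) in WT with time, *FTH1* (−0.29 to 0.061) and *GSTP1* (−0.081 to 0.083) in KO with time, and *GSTP1* in the change between days (−0.73 to 0.029) and in KO#10 against WT (−0.74 to 0.016). Between the clones on day 24 they were *FTH1* (−0.035 to 0.31), *GSTA1* and *GSTA2* (both −2.50 to 0.50) and *MGST1* (−2.16 to 0.72), and on day 12 *FTH1* (−0.65 to 0.28) and *FTL* (−0.023 to 0.43).

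The depth of the libraries is unknown, and with 2 libraries per line and day no call between KO and WT rests on more than 2 WT libraries. At scores near 0, as for *GSTA1* and *GSTA2*, a difference in level cannot be sized.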

Other observations

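A shared pattern was noticed after the values were seen, and its share over all genes was not counted. *GSTA1*, *GSTA2*, *FGA* and *SLC40A1* were at 0 to 2 in all libraries of day 12, scored 20 to 40 in WT of day 24, and were at most 11 in KO. All of them passed the filter of day 24 only through WT. The pattern is not particular to them. *APOB* (41 and 35 in WT, at most 3 in KO) and *HBE1* (31 and 29 in WT, at most 1 in KO), both at 0 on day 12, came close to it. On day 24 *MGST1* had a score of 14 to 109 in all KO libraries, and *GSTP1* and *FTH1* overlapped between WT and KO.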
